A study of Mus musculus with 6 samples.

Results

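Lung myofibroblasts from bleomycin-treated mice were compared with homogenate of whole untreated mouse lung. The comparison uses 4 of the 6 arrays of the series: 2 arrays of sorted myofibroblasts and 2 arrays of homogenate, chosen by their labels. The myofibroblasts were the CD49e+ Sca1- Lin- cells of lung treated with bleomycin, a drug that injures the alveolar lining and is widely used to produce lung fibrosis in mice. The homogenate was unsorted tissue of untreated lung. The other 2 arrays, used here for the estimate of spread and for values set side by side, hold steady-state fibroblasts sorted as CD140a+ Lin- cells from untreated lung. Each group was described as 2 sets of 50000 cells, and 5.8 ng of total RNA was labelled with Cy3 per array. Every sample was labelled male. Strain, age, bleomycin dose and time after treatment are not stated in the labels, and nothing says that both sets of a group are from different animals. P-values therefore reflect only how far these arrays scatter, which may be technical scatter. Treatment, cell sorting and cell type all differ between the compared groups and cannot be told apart: no homogenate of bleomycin-treated lung is among the samples used here.

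Myofibroblasts are mesenchymal cells that join the secretory work of a fibroblast to the contractile apparatus of smooth muscle. They appear after injury, secrete fibrillar collagens, fibronectin and other matrix proteins, pull on that matrix through actin bundles and integrins, and in fibrosis persist and stiffen the tissue. TGF-beta, released from its latent form in the matrix, is their best known inducer, and smooth muscle actin (Acta2) their usual marker. CD49e is integrin alpha 5 (Itga5), a chain of the main fibronectin receptor. Sca1 (Ly6a) is a surface protein of many resting stromal and endothelial cells, and Lin- cells lack lineage markers, which are not listed in the sources used here.

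Levels are given as relative signal: the processed signal of a probe divided by the 75th percentile of that array, so that 1 is the brightness of the probe at that rank. Between 65.5% and 66.5% of the spots of the myofibroblast arrays and between 71.4% and 73.4% of those of the homogenate arrays were well above background, and no spot was saturated. Replicate arrays differed across genes with an SD, on the log2 scale, of 0.58 in myofibroblasts, 0.39 in homogenate and 0.88 in fibroblasts. All 6 arrays lay on 1 slide, with both homogenate arrays in another row of it than the sorted cells, so that an effect of the row cannot be told apart from the tissue.

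The label of the homogenate was contradicted by sex-linked genes. Xist, the RNA that silences an X chromosome in female cells, had a relative signal of 26.7 and 24.9 on the homogenate arrays and was not well above background on either myofibroblast array. The Y-linked genes Ddx3y and Kdm5d were not well above background in homogenate, whereas Ddx3y read 0.796 and 1.16 and Kdm5d 0.822 and 0.368 in myofibroblasts. Uty read 0.292 and 0.281 in myofibroblasts against 0.0197 and 0.0232 in homogenate, and Eif2s3y 1.5 and 1.42 against 0.109 and 0.119. The libraries labelled as male homogenate thus carried RNA with female-type sex-linked expression, and sex, too, cannot be told apart from the comparison. Of 557 tested X-linked genes 71 were called higher and 78 lower. These counts were near the shares over all tested genes, 12.1% higher and 15.1% lower. Of 12 tested Y-linked genes 10 were called higher and 2, Sly and Sry, lower. The calls of Sly and Sry were lost without either homogenate array or the second myofibroblast array. Leaving out both chromosomes left 4499 calls.

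The sort markers followed the gate for CD49e and Sca1. Itga5 had a relative signal of 3.74 and 5.01 in myofibroblasts and 0.369 and 0.241 in homogenate, a log2 difference of 3.86 ± 0.35 (SE, n = 2 arrays a group; limma, adjusted p = 0.00125). Ly6a read 3.69 and 4.28 against 24.1 and 21.6 and was lower by 5.74-fold (limma, adjusted p = 0.00369). Pdgfra, the gene of CD140a, which marks resting fibroblasts and was not part of this gate, read 9.66 and 10.2 against 7.45 and 7.16 and did not pass the test (limma, adjusted p = 0.435). It read 73.5 and 35.1 in the fibroblasts that were sorted by it. A low Ly6a signal shows less of this RNA, not its absence.

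Of 17162 genes tested, 4673 (27.2%) were called at an adjusted p under 0.05 in the limma fit, 2077 higher in myofibroblasts (12.1%) and 2596 lower (15.1%). A fold of 4 or more was reached by 853 of the higher and 1675 of the lower genes. The median log2 difference of all tested genes was -0.01. Genes whose arrays did not overlap between the groups made up 38.7% on the higher side and 38.8% on the lower side, so that a gap between the arrays is common here. The share of calls on the higher side, 44.4%, depended on the scale: it was 66.8% with arrays scaled to their medians, 34% with the percentile taken over probes above background on all 6 arrays, 20.6% in the authors' table and 56.0% after normexp correction. The median of all genes was then 0.43, -0.20, -0.51 and 0.11. Differences under about that size have no settled direction.

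**Figure D1:**
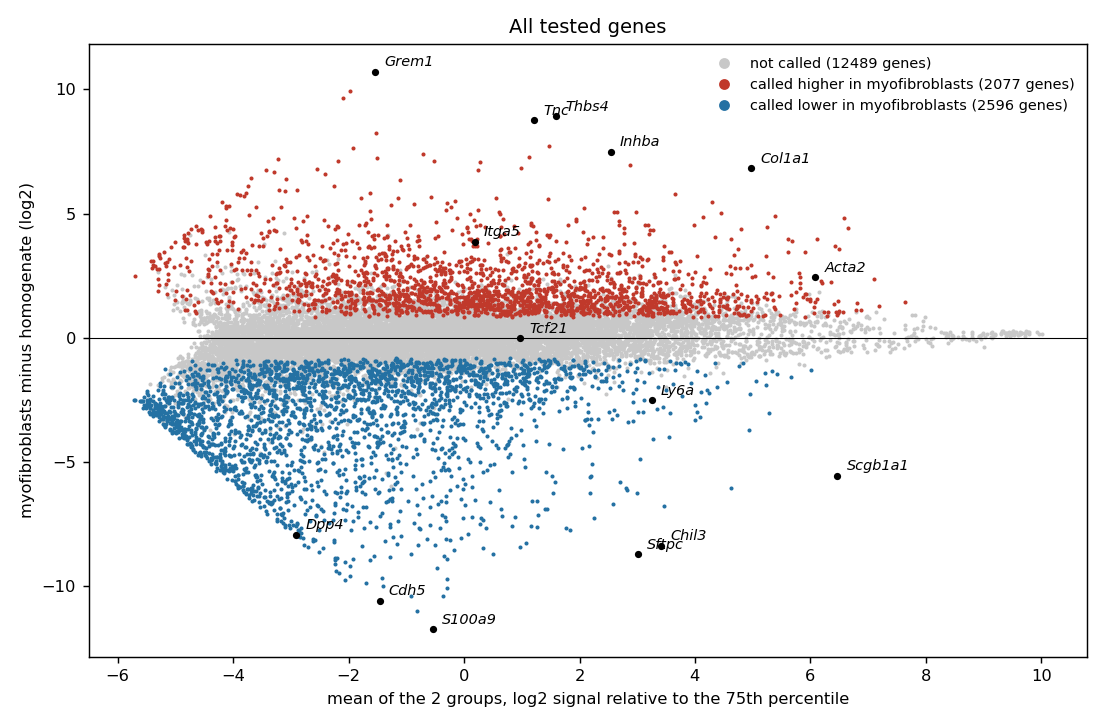
Each point is 1 of the tested genes, placed by the mean log2 relative signal of the 2 groups (x axis) and the log2 difference of myofibroblasts minus homogenate (y axis); red and blue points passed the limma test at an adjusted p under 0.05. The 2077 higher and 2596 lower genes spread over the whole range of signal, with matrix genes such as Tnc and Col1a1 at the top and the surfactant gene Sftpc and the endothelial gene Cdh5 at the bottom; Tcf21 lies on the zero line.

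The largest rises were in secreted matrix and matrix-modifying genes. Thbs4, a thrombospondin of tendon and injured tissue, had a relative signal of 65.1 and 68.1 in myofibroblasts and 0.107 and 0.176 in homogenate, a log2 difference of 8.92 ± 0.37 (SE; limma, adjusted p = 0.000167). Tnc, tenascin C, a matrix glycoprotein of wounds, read 47.1 and 49.1 against 0.0927 and 0.135. In both genes the 2 myofibroblast arrays nearly coincided and lay far above the homogenate. P4ha3, a collagen prolyl hydroxylase subunit, read 40.4 and 40.2 against 0.327 and 0.113, and Cthrc1, a secreted protein of collagen-producing cells in wounds, 28.3 and 26.0 against 0.228 and 0.135. Inhba, the subunit that forms activin A, read 82.0 and 74.6 against 0.392 and 0.479, a log2 difference of 7.50 ± 0.25 (SE; limma, adjusted p = 0.00011). Ccn4, a matricellular protein of the CCN family, and Has2os, the antisense transcript of a hyaluronan synthase gene, rose by 7.07 and 7.13 on the log2 scale. The strand-specific reading of Has2os rests on its probe. The remaining members of the 12 largest rises were the collagen genes Col5a1, Col5a3, Col1a1 and Col15a1 and the microfibril protein gene Ltbp2, with log2 differences between 5.80 and 6.94. Dimmer probes gave smaller rises, of 3.15 for Ccn4, 2.14 for Col15a1, 4.87 for Col5a3, 4.47 for P4ha3 and 6.56 for Col1a1. The rank of such genes thus depends on the probe kept.

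A second set of genes was not well above background on either homogenate array, so that only a lower bound on the fold can be given: the myofibroblast mean against the lowest signal that counted as above background on each homogenate array. Grem1, a secreted antagonist of BMP signals, read 14.7 and 13.4 in myofibroblasts and was at least 360.02-fold higher (limma, adjusted p = 0.00011). Lrrc15, a membrane protein of TGF-beta-exposed fibroblasts, read 7.82 and 8.17 and was at least 205-fold higher. Mmp10, a secreted stromelysin, was at least 170.4-fold higher, Thbs2, another thrombospondin, at least 112-fold, and Fst, which binds and blocks activins, at least 94.7-fold. Grem1, Lrrc15, Thbs2 and Fst differed little between the 2 myofibroblast arrays. Chodl did not: it read 1.28 on the first and 29.0 on the other, and its call (at least 149-fold, adjusted p = 0.0157 in limma) was lost without either homogenate array, with adjusted p up to 0.0884.

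**Figure D2:**
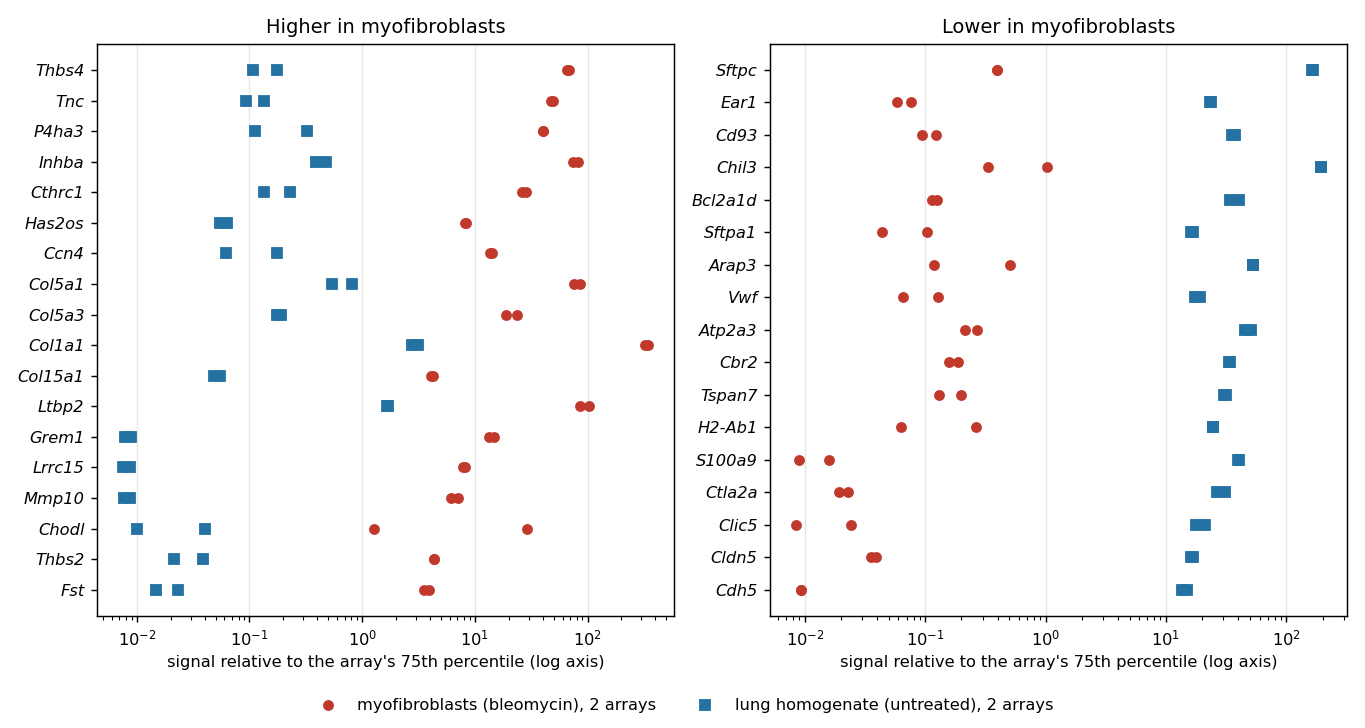
Relative signal (log axis) of the genes with the largest differences on each of the 2 myofibroblast arrays (circles) and the 2 homogenate arrays (squares): the 12 largest rises and 6 largest lower-bounded rises on the left, and the same for decreases on the right without the sex-linked Xist. Predicted genes, pseudogenes and RIKEN or clone names were left out of the ranking. In every gene shown the 2 groups do not overlap. Chodl is the gene whose myofibroblast arrays lie farthest apart, at 1.28 and 29.0.

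Of 11 fibrillar collagen genes tested, 9 rose and none fell, with a median log2 difference of 4.83 against -0.01 for all genes. Col1a1, which encodes the larger share of type I collagen, the main fibre of scar, read 325 and 345 in myofibroblasts and 3.13 and 2.77 in homogenate, 114-fold higher (limma, adjusted p = 0.000428). Its partner chain Col1a2 read 507 and 514 against 19.0 and 16.9, and Col3a1, of the finer type III fibres, 123 and 132 against 6.12 and 6.02. Col11a1, a fibril-nucleating chain better known from cartilage, read 5.36 and 4.22 against 0.114 and 0.0779. The count was 9 whichever myofibroblast or homogenate array was left out. Resting fibroblasts stood between the groups for type I collagen, with Col1a1 at 86.7 and 38.0, and the difference of myofibroblasts from fibroblasts, 2.54 on the log2 scale, also passed (limma, adjusted p = 0.0157). For Col11a1 the fibroblasts, at 0.137 and 0.078, were near the homogenate.

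Other interstitial collagens rose in 10 of 12 tested genes, with a median of 4.52 and none lower. Col8a1, a short-chain collagen of remodelling vessels, read 12.2 and 8.63 against 0.180 and 0.243. Col6a3, of the beaded filaments around cells, read 25.7 and 25.9 against 0.733 and 0.647, and Col12a1, which coats collagen fibrils, 139 and 113 against 4.15 and 3.59. Basement membrane genes were divided, with 11 of 18 higher and 3 lower (6 to 9 higher and 1 or 2 lower with an array left out). Hspg2, the proteoglycan perlecan, and Col4a2, of the common type IV network, rose by 4.21 and 3.38. Col4a4, of the network found in specialised epithelial membranes, and the epithelial laminin chain Lama3 fell by 5.11 and 4.39 on the log2 scale, and Lamb3, another epithelial laminin chain, fell by 3.38 (call lost without the first myofibroblast or either homogenate array). The lower call of Col4a4 was lost after normexp correction, and that of Lama3 after normexp correction, with median or quantile scaling, in the unfiltered fit, with a replicate block, and without the second myofibroblast or either homogenate array (adjusted p up to 0.209 in limma).

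Enzymes that mature and cross-link collagen moved with their substrates: 18 of 21 tested were higher and none lower, with a median of 2.75. Lox, which starts cross-linking by oxidising lysines, read 48.7 and 39.8 against 2.12 and 1.70. Its relative Loxl3 read 9.57 and 7.89 against 0.272 and 0.277, and the collagen chaperone Fkbp10 9.61 and 12.2 against 0.545 and 0.395. Leaving out an array lowered the count to between 10 and 14, and Fkbp10 lost its call without the second myofibroblast array or either homogenate array (adjusted p up to 0.0682). Loxl2 rose by 1.20 on the brightest probe, a call lost in the authors' table and without any 1 of the 4 arrays (adjusted p up to 0.148), and by 5.41 on another probe, from 0.551 and 0.548 in homogenate to 21.9 and 24.9.

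Matricellular and provisional matrix genes rose in 18 of 19 tested, with a median of 4.32 and none lower, and 17 were called with any 1 of the 4 arrays left out. Spp1, osteopontin, a secreted adhesive protein also made by macrophages, read 144 and 117 against 3.59 and 2.41, 44.1-fold higher (limma, adjusted p = 0.00032). Spp1 was not well above background on either fibroblast array. Postn, periostin, a collagen-binding protein of scars, read 43.7 and 39.5 against 2.29 and 1.88. Elastic fibre genes rose in 10 of 16 tested, none lower, with a median of 2.81. Fbn1, the fibrillin of microfibrils, read 107 and 84.7 against 3.74 and 2.90, Fbln2 17.1 and 21.4 against 0.491 and 0.316, and Eln, elastin itself, 194 and 201 against 14.1 and 12.4. Eln was also bright in fibroblasts, at 130.4 and 67.0, and its difference between the sorted groups did not pass (limma, adjusted p = 0.0929). Over the elastic fibre list, fibroblasts were higher than homogenate in 12 of 16 genes, with a median of 2.34. Between the sorted groups, myofibroblasts were higher in 4 of these genes and lower in 3.

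Matrix proteases and their inhibitors were both higher, in 13 of 19 tested, none lower, with a median of 2.62 (8 with any 1 array left out). Adamts4, which cleaves aggregating proteoglycans, read 19.5 and 19.6 against 0.876 and 0.638, Mmp14, a membrane collagenase, 2.44 and 2.62 against 0.112 and 0.105, and Mmp2, a gelatinase that Mmp14 activates, 17.8 and 20.4 against 1.12 and 1.20. The inhibitor Timp1 read 38.6 and 47.3 against 1.74 and 1.92, 23.4-fold higher.

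The contractile cytoskeleton was examined next, since it separates a myofibroblast from a fibroblast. Of 15 tested genes 12 were higher and none lower, with a median of 2.37. From the RefSeq promoters (GRCm38.p6, 250 bases before to 50 after the start site), the windows of 3 of these genes and of the smooth muscle gene Cnn1 are printed because serum response factor, a regulator of contractile genes, binds the CArG box. Capitals mark that box where a search of both strands found its strict consensus, 10 letters that begin with CC, end with GG and hold only A or T between. Acta2 lies on chromosome 19 from 34255324 to 34255623, minus strand. Cnn1 lies on chromosome 9 from 22099003 to 22099302, plus strand. Myl9 lies on chromosome 2 from 156775214 to 156775513, plus strand. Fhl2, shown by the second of its windows, lies on chromosome 1 from 43163912 to 43164211, minus strand.
Acta2: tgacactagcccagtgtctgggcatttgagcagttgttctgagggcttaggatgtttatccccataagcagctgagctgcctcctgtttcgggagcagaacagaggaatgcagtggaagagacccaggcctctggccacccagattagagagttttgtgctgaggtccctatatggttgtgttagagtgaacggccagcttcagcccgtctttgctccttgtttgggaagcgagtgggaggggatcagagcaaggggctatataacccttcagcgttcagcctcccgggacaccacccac
Cnn1: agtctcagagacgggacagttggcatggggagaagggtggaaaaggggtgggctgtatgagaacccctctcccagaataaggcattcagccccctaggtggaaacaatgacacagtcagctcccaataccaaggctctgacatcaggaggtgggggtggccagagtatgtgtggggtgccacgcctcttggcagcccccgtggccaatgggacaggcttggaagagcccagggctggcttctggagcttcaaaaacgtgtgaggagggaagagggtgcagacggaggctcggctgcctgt
Myl9: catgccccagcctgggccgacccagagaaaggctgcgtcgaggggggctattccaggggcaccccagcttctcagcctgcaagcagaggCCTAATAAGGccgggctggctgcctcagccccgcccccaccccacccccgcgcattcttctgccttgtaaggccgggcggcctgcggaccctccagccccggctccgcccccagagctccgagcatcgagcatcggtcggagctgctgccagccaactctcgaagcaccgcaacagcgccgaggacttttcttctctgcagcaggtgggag
Fhl2: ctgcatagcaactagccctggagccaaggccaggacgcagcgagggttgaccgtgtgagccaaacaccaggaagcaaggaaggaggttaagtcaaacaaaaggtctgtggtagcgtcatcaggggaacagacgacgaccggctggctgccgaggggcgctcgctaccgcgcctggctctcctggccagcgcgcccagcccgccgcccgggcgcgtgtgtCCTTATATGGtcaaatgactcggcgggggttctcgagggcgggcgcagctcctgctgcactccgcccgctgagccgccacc
Of 15 contractile genes with a window in the table, 4 held a strict CArG box (Cnn2, Myl9, Vcl and Fhl2), or 26.7%, against 1.81% of all 27025 genes; none of 8 smooth muscle genes did. Myl9 and Fhl2 were chosen for printing after the matches were known. Boxes that depart from the consensus by a base were not searched; the known CArG elements of the Acta2 promoter are of that kind, so the lack of capitals in its window does not mean that it lacks them. For Cnn1 it says only that the strict letters are not in those 300 bases.

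Acta2, the marker gene, read 144 and 173 in myofibroblasts, 28.2 and 30.3 in homogenate and 9.79 and 24.4 in fibroblasts. It was 5.38-fold higher than in homogenate (log2 difference 2.43 ± 0.46, SE; limma, adjusted p = 0.0157), with a high level in the homogenate itself. That call was lost without any 1 of the 4 arrays (adjusted p up to 0.0947), while the other probes of Acta2 gave 4.23 and 4.66 with adjusted p = 0.00178 and 0.000378 over all probes. Tagln, an actin-binding protein of smooth muscle, read 77.4 and 89.0 against 5.20 and 4.78, Tpm2, a tropomyosin, 96.9 and 99.9 against 6.60 and 5.82, and Palld, of actin bundles, 36.5 and 41.1 against 3.82 and 3.30. Fhl2, an adaptor in focal adhesions, had the largest fold of the group, from 0.231 and 0.222 to 3.99 and 5.74. Myl9, the regulatory myosin light chain, read 14.8 and 18.8 against 3.1 and 3.19. Vcl, vinculin of adhesion plaques, read 12.5 and 12.3 against 5.09 and 5.04 without passing (limma, adjusted p = 0.089). With an array left out, the count of higher genes was 6 or 7. Set against fibroblasts in the same fit, where 9.83% of all genes were called higher and 8.73% lower in myofibroblasts, 9 of 15 contractile genes were higher. Fibroblasts themselves were higher than homogenate in 1, where 20.1% of all genes were called, 8.19% higher and 11.9% lower. These comparisons share arrays.

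Genes of the smooth muscle list went both ways, 4 of 9 higher and 3 lower. Not all of them were restricted to smooth muscle: Hhip read 11.3 and 5.43 in fibroblasts against 1.15 and 1.08 in homogenate. Des, desmin, an intermediate filament of muscle, read 30.6 and 42.4 against 1.34 and 0.894, Cnn1, calponin, 4.49 and 5.40 against 0.848 and 0.938, and Smtn, smoothelin, 5.35 and 5.93 against 1.09 and 1.07. Actg2, the enteric smooth muscle actin, read 17.8 and 19.4 against 1.88 and 1.82 and lost its call without any 1 of the 4 arrays (adjusted p up to 0.0962). Myh11, the smooth muscle myosin heavy chain, was lower, at 3.67 and 2.78 against 6.45 and 9.47, although that call was lost with median scaling and without any 1 array (adjusted p up to 0.211). Synpo2 and Pln, the latter a regulator of the calcium pump, were lower too; Pln, at least 2.95-fold, lost its call after normexp correction and Synpo2 without either homogenate array. Striated muscle genes were also divided: Acta1 and Tnnt2 read 2.77 and 2.89, and 3.77 and 3.99, in myofibroblasts against 0.184 and 0.169, and 0.359 and 0.102, in homogenate, whereas the heart myosin Myh6 was lower, from 2.64 and 0.663 in homogenate to 0.104 and 0.128, a call lost without either myofibroblast array and with all probes averaged. Actc1, the cardiac actin, was the other higher gene of this list, and Myl7 and Myh7 the other lower ones; the call of Myh7 was lost without the first homogenate array, and that of Myl7 without it, without the second myofibroblast array or after normexp correction.

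**Figure D3:**
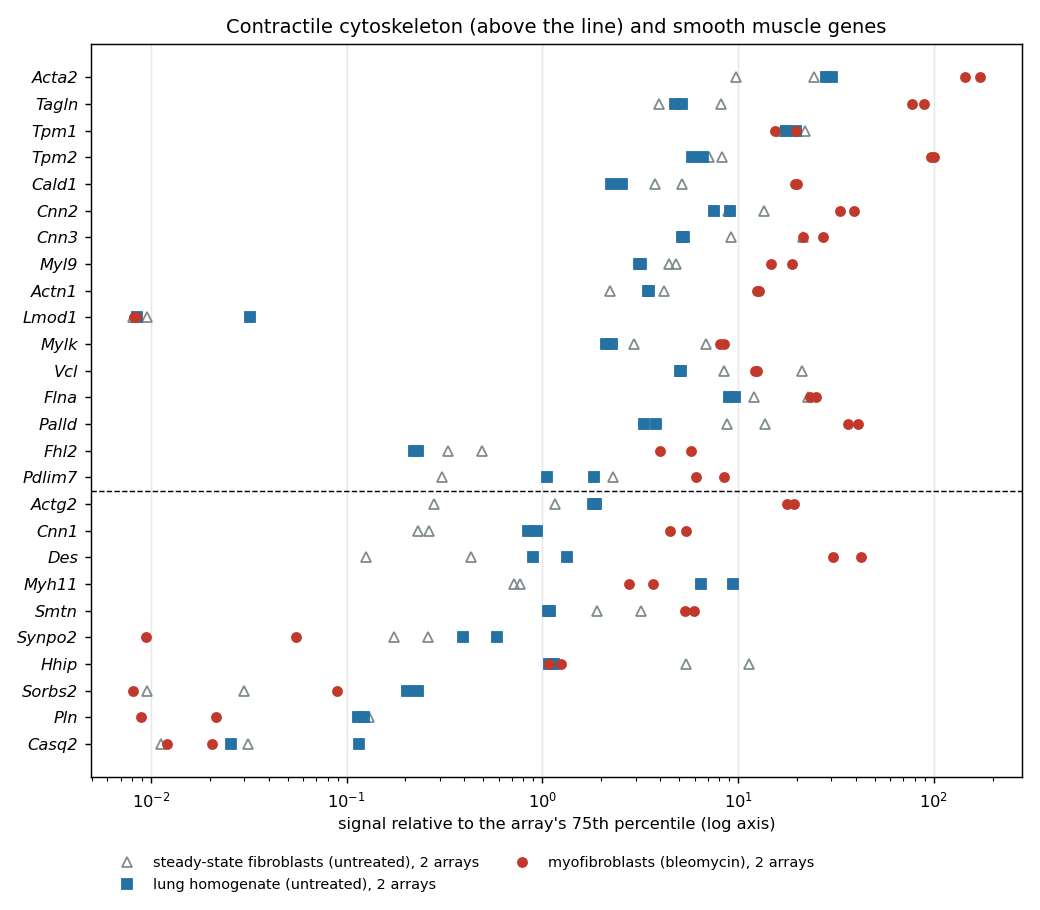
Relative signal (log axis) on each array of the genes of the contractile cytoskeleton (above the dashed line) and of smooth muscle (below it); circles are myofibroblasts, squares homogenate and open triangles steady-state fibroblasts, 2 arrays each. Acta2, Tagln, Tpm2, Des and Actg2 lie higher in myofibroblasts than in both other groups, Tpm1 overlaps in all 3, and Myh11 is highest in homogenate.

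Pericytes, mural cells of capillaries, share some of these genes. Cspg4, a proteoglycan of mural cells, read 1.26 and 1.57 against 0.193 and 0.184, and Pdgfrb, the receptor for PDGF-B, 33.5 and 33.3 against 6.64 and 4.06 (limma, adjusted p = 0.017, up to 0.112 with an array left out). Higd1b, a marker of lung pericytes, was lower, at 0.633 and 0.609 against 2.10 and 2.18 (call lost without either homogenate array), and Rgs5 read 0.0637 and 0.00809 against 0.351 and 0.493 without passing. In all, 2 of 10 pericyte genes were higher and 1 lower.

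Signalling genes were mixed. In the TGF-beta and activin list 8 of 18 genes were higher and 1 lower, with a median of 1.40, led by Lrrc15, Fst and Inhba; Fstl1, a secreted follistatin-like protein, read 276 and 272 against 17.8 and 17.5. Smad6, an inhibitor of BMP signals inside the cell, was the lower gene. The activin subunit gene and that of its antagonist Fst were both raised. Of 22 BMP, Wnt and Hedgehog genes 9 were higher and 1 lower, with a median of 1.37. The leading members were secreted antagonists: Frzb and Dkk2, inhibitors of Wnt signals, were at least 33.03-fold and 47.4-fold higher, and Sfrp1, another, read 5.32 and 5.36 against 0.120 and 0.157. Frzb differed between the myofibroblast arrays, at 1.74 and 0.951. Bmp6, a ligand, was the lower gene, at 0.378 and 0.301 against 5.42 and 4.93. Fibroblasts were higher than homogenate in 11 of 20 tested genes of the BMP, Wnt and Hedgehog list and lower in 2. Between the sorted groups, myofibroblasts were higher in 5 of 22 and lower in 3.

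Growth factors and receptors had 11 of 28 higher and 2 lower. Igf1, a growth factor for stroma and epithelium, read 32.7 and 29.0 against 1.25 and 1.44, Hbegf, a ligand of the EGF receptor, 21.2 and 21.2 against 1.90 and 2.04, and Fgf2 1.66 and 1.36 against 0.124 and 0.142. Ednrb, an endothelin receptor, was lower, at 0.0636 and 0.0961 against 8.21 and 6.73, as was Edn1, an endothelin, whose call was lost without any 1 of the 4 arrays. In fibroblasts Hbegf read 0.778 and 0.341 and Fgf2 1.31 and 0.874; the difference of Fgf2 between the sorted groups did not pass (limma, adjusted p = 0.289).

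Transcription factors of mesenchyme rose in 12 of 24 tested and fell in 2, with a median of 1.30 (6 to 9 higher and at most 1 lower with an array left out). Twist1, which drives mesenchymal programmes, was at least 18.4-fold higher and Snai1, a repressor of epithelial genes, at least 9.27-fold, both not above background in homogenate. Meox1, a homeobox factor of fibroblasts, read 13.4 and 12.6 against 1.02 and 0.775, and Scx, a regulator of tendon matrix, 15.9 and 16.6 against 0.580 and 2.43. The call of Snai1 was lost without the second myofibroblast array and that of Scx with a myofibroblast array removed, whichever it was (highest adjusted p 0.0609 and 0.0706). Fibroblasts held Twist1 and Snai1 at 0.397 and 0.145, and 0.426 and 0.218, and Meox1 and Scx at 0.596 and 0.321, and 0.318 and 0.507. The lower genes were Sox11 and Foxf1, a factor of lung mesenchyme and endothelium, the latter at 4.24 and 6.28 against 21.4 and 19.7. The call of Sox11 was lost without either homogenate array, and that of Foxf1 without any 1 of the 4 arrays, with median scaling or with a replicate block. Tcf21, a factor of alveolar fibroblasts, read 1.98 and 1.93 against 2.07 and 1.88 and overlapped (limma, adjusted p = 0.985).

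Genes of the cell cycle were higher in 18 of 24 tested and lower in none, with a median of 2.89. Ccna2 and Ccnb1, cyclins of the S and G2 phases, read 4.42 and 3.59, and 0.821 and 1.24, against 0.248 and 0.384, and 0.0545 and 0.0826. Kif20a, a motor of dividing cells, read 5.80 and 5.10 against 0.487 and 0.419, and Mki67, the proliferation marker, 5.96 and 5.31 against 1.54 and 1.35 (call lost without the second homogenate array, adjusted p = 0.0587). Cdk1, the mitotic kinase, was at least 11.8-fold higher, although its call was lost without the first myofibroblast or the first homogenate array. Fibroblasts were lower than homogenate in 10 of 22 of these genes and higher in none. The count fell to between 9 and 12 with an array left out.

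The secretory pathway was higher in 14 of 18 tested genes, with a median of 1.70 and none lower. Kdelr3, which returns proteins to the endoplasmic reticulum, read 1.01 and 1.32 against 0.0884 and 0.0995, and the vesicle coat genes Sec24d and Sec23a 9.87 and 12.3, and 5.36 and 5.18, against 1.21 and 1.06, and 0.906 and 0.861. These folds were moderate, and with an array left out between 3 and 7 genes were called. Serine, glycine and proline supply rose in 6 of 12 and fell in 1 (1 or 2 higher with an array left out); Mthfd2, a mitochondrial folate enzyme, read 3.89 and 5.74 against 0.704 and 0.785 (call lost without any 1 of the 4 arrays), and Slc7a5, an amino acid carrier, 3.62 and 3.53 against 0.604 and 0.692. Slc38a1, a glutamine carrier, was the lower gene, at 0.0355 and 0.0824 against 1.36 and 1.31. Glycolysis genes were higher in 5 of 14 and lower in 1, with a median of 0.80, within reach of the shift that scaling produced, and 0 to 2 were called higher with an array left out. The higher genes were Hk2, Tpi1, Pgk1, Pgam1 and Pkm, and the lower one Slc16a3, a lactate carrier. Without any 1 of the 4 arrays the calls of Pgk1 and Slc16a3 were lost. Tpi1, Pgam1 and Pkm lost theirs without either homogenate array, Tpi1 and Pgam1 also without the second myofibroblast array and Pkm without the first. In the authors' table the calls of Pgk1, Pkm and Tpi1 were lost. That of Pgk1 was also lost with quantile scaling, that of Slc16a3 with median scaling, and those of Pkm and Tpi1 with all probes averaged. Hk2 read 5.74 and 4.06 against 1.30 and 1.27 and lost its call without any 1 of the 4 arrays (adjusted p up to 0.123).

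Chemokines and inflammatory mediators were higher in 11 of 22 tested and lower in 3 (6 to 8 higher and 1 lower with an array left out). Ccl2, which draws monocytes, read 11.1 and 10.6 against 0.511 and 0.454, Lif, a cytokine of the interleukin-6 family, 2.32 and 3.01 against 0.0556 and 0.0760, and Cxcl10, induced by interferons, 1.73 and 1.51 against 0.162 and 0.162 (call lost without either homogenate array). Cxcl2 and Il33 were lower, the call of Il33 being lost with median scaling or without any 1 of the 4 arrays. Cxcl12 had probes called in opposite directions: the brightest fell by 1.83, from 31.3 and 26.6 to 8.75 and 7.57, while another rose by 2.20, from 0.234 and 0.273 to 1.11 and 1.22, so that no direction can be given for the gene.

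Of 14 surface and fibroblast markers 6 were higher and 3 lower, with 3 higher whichever of the 4 arrays was left out. Ncam1, an adhesion molecule of nerve and activated stroma, read 7.20 and 7.45 against 0.317 and 0.353 and was at 0.358 and 0.229 in fibroblasts. Cd248, endosialin, read 43.0 and 45.1 against 2.08 and 2.22, and in fibroblasts 27.5 and 23.3, a difference between the sorted groups that did not pass (limma, adjusted p = 0.0699). Eng, an endothelial TGF-beta co-receptor, Cd200 and Cd9 were lower, the last 2 at 0.197 and 0.176 against 4.16 and 3.85, and at 2.02 and 2.22 against 19.5 and 17.6. The call of Eng was lost with median scaling or without any 1 of the 4 arrays. Of 13 integrin chains 6 were higher and 4 lower, with 3 higher and 2 or 3 lower once an array was left out. Itga11, a collagen receptor chain, was at least 27.3-fold higher and Itga4, a chain of leukocyte integrins, lower, with a fall by 3.43 on the log2 scale; Itga1, Itga3 and Itgb6 were the other lower chains, Itga3 losing its call without the second homogenate array and Itgb6 without any 1 of the 4 arrays or after normexp correction. Itga5, by whose product the cells were sorted, was 1 of the 6 higher chains. Itga8 read 7.69 and 6.54 against 6.77 and 6.61 and overlapped, while fibroblasts had 43.9 and 27.9.

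The list of alveolar fibroblasts and lipofibroblasts had 6 of 16 tested genes lower and 1, the microfibril gene Mfap4, higher, with a median of -1.13; Mfap4 lost its call without the second myofibroblast or either homogenate array. Lrat, which esterifies retinol for storage, read 0.114 and 0.163 against 4.87 and 4.15 in homogenate and 26.1 and 14.5 in fibroblasts. Inmt, a methyltransferase abundant in lung stroma, read 4.40 and 7.69 against 47.6 and 44.6, with 185 and 174 in fibroblasts. Pparg, a regulator of lipid storage, read 0.119 and 0.0846 against 5.51 and 4.37; alveolar macrophages also express it. Limch1, Npnt and Tcf21 did not pass the test. Against fibroblasts, myofibroblasts were lower in 11 of 16 of these genes. Adventitial fibroblast genes were higher in 6 of 15 and lower in 3: Has1, a hyaluronan synthase, and Serpinf1 read 34.7 and 45.0, and 107 and 128, against 3.54 and 3.67, and 11.2 and 12.6, whereas Dpp4, a surface peptidase, was at least 51.7-fold lower. Ly6a, whose product the sort selected against, was 1 of the 3 lower adventitial genes. Fibroblasts were higher than homogenate in 10 of 15 adventitial genes and lower in 1. Against fibroblasts, myofibroblasts were lower in 9 of 15 adventitial genes and higher in none. Dcn, decorin, was higher than in homogenate, at 19.6 and 21.9 against 5.32 and 5.30, yet lower than in fibroblasts, at 101 and 109.7.

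Below whole lung stood the genes of endothelial, epithelial and blood cells. In these bulk samples, fewer cells of a type and less RNA per cell cannot be told apart. Endothelial genes were lower in all 20 tested, with a median of -7.29, and their summed relative signal was 3.36 and 4.43 in myofibroblasts against 150 and 144 in homogenate. Cdh5, the endothelial cadherin, read 14.9 and 13.5 in homogenate, was not above background in myofibroblasts and was at least 352-fold lower there; Kdr, the main VEGF receptor, and Cldn5, of tight junctions, were at least 147-fold and 407-fold lower. Vwf and Cd93 fell by 7.66 and 8.41.

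Alveolar type II genes were lower in 12 of 15 tested and higher in none, with a summed signal of 8.66 and 10.1 against 282 and 286. Sftpc, a surfactant protein, read 0.395 and 0.397 against 164 and 167, 418-fold lower (limma, adjusted p = 0.00011), and Sftpa1 0.104 and 0.0441 against 16.6 and 16.1. Of 11 alveolar type I genes 7 were lower and 2, Pdpn and Igfbp2, higher, both calls being lost without either homogenate array and that of Pdpn also without either myofibroblast array and in the authors' table; Ager, of these flat cells, read 0.701 and 1.06 against 50.5 and 47.6, and Clic5 was at least 478-fold lower. Airway genes were lower in 14 of 16, with a summed signal of 79.9 and 77.6 in myofibroblasts against 817 and 806 in homogenate. Scgb1a1, the club cell secretory protein and the brightest of them in homogenate, kept a signal of 10.4 and 15.9 in myofibroblasts against 614 and 602 in homogenate and 118 and 69.0 in fibroblasts. Other members thus held most of the sum in myofibroblasts. The part of Scgb1a1 in the other results was not tested.

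Most leukocyte genes were lower in the sorted cells. Macrophage and monocyte genes were lower in 15 of 18, lymphocyte genes in 10 of 13, and those of granulocytes, mast cells and platelets in 9 of 11, with none higher. The summed signal of this last list was nonetheless 155 and 141 in myofibroblasts against 247 and 251 in homogenate. Of its 12 genes on the array, 9 were above background on neither myofibroblast array and 2 on both, so that few genes held this sum. Csf3r, a gene of this list, had a log2 difference of -0.34 and did not pass (limma, adjusted p = 0.378). Adgre1, the F4/80 antigen, was at least 259-fold lower and S100a9, of neutrophils, at least 989-fold; Ptprc, the CD45 antigen of leukocytes, read 0.0117 and 0.0674 against 23.4 and 23.7. Some macrophage genes kept a low signal in myofibroblasts: Chil3 read 0.333 and 1.04 against 194 and 195, Marco 0.458 and 1.84 against 67.9 and 71.4, Ctss 0.688 and 1.63 against 113 and 116, and Cd68 0.774 and 0.612 against 8.52 and 7.80. Of the 10 macrophage and monocyte genes above background on both myofibroblast arrays, 5 read higher on the first and 5 on the second. Those higher on the first include Itgam and Csf1r, whose kept probes were flat between the groups. Over all 18 genes of the list, 6 read higher on the first array and 12 on the second. Of these 18, 6 were above background on neither myofibroblast array. The part of macrophage RNA in the Spp1 signal was not tested.

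Red blood cell genes were lower in 5 of 6, mesothelial genes in 7 of 8 and MHC genes in 7 of 11, with none higher. With an array left out these counts were 3 or 4, 4 to 6, and 5 or 6. Among the mesothelial genes Msln and Wt1 lost their calls without either homogenate array, Wt1 also without the second myofibroblast array and Msln without either fibroblast array; the red cell gene Alas2 lost its call without the second myofibroblast or the first homogenate array. Hba-a1, a globin chain, read 0.195 and 0.298 against 38.3 and 21.6, and H2-Ab1, an MHC class II chain, 0.0625 and 0.265 against 24.8 and 24.6. In the short Schwann and nerve list 2 of 4 genes were higher and 1 lower. Uchl1 and S100b, the higher genes, read 1.41 and 1.57, and 1.56 and 0.965, in myofibroblasts. Mbp was lower on its brightest probe, at 0.110 and 0.169 against 3.76 and 4.02. On 2 dimmer probes Mbp differed by 0.32 and -0.24 without passing (limma, adjusted p = 0.497 and 0.544 over all probes).

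**Figure D4:**
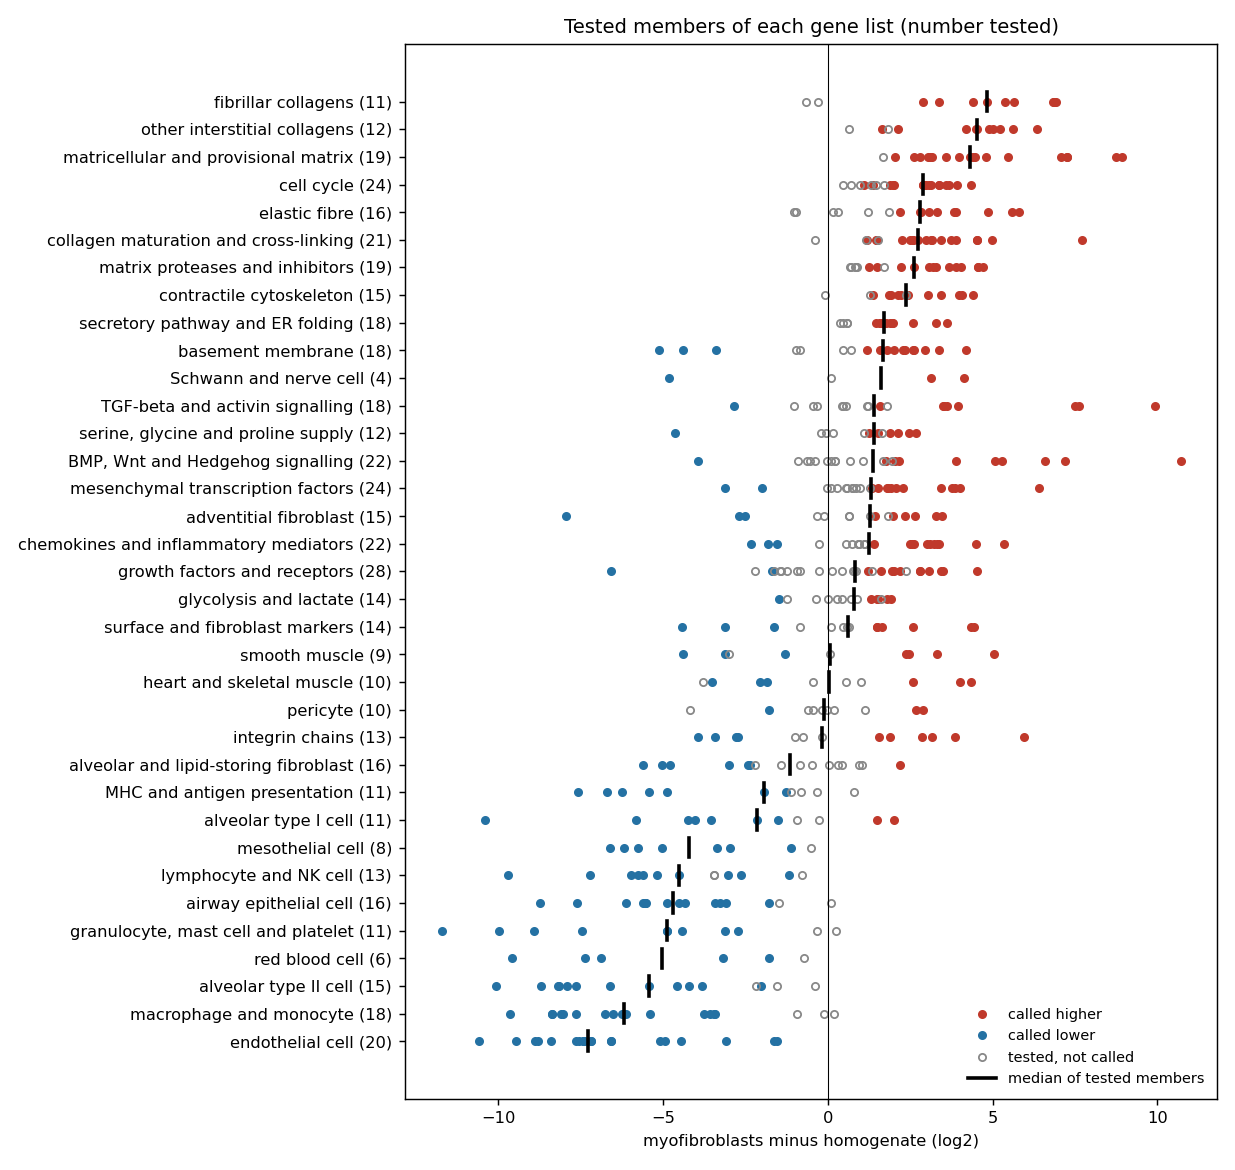
Log2 difference of myofibroblasts minus homogenate (x axis) for every tested member of the 35 gene lists, ordered by median (black bar); filled points passed the limma test and open points did not, and the number of tested genes stands in brackets. Fibrillar collagens, with a median of 4.83, are at the top and endothelial genes, with -7.29, at the bottom; lists such as smooth muscle and pericyte hold genes on both sides of zero.

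The choice of probe bears on some members. The brightest probe of a gene was kept, and in 199 genes, 9 of them in the lists, that probe lay within 2-fold on all 6 arrays while another probe of the gene was called over 2-fold apart. Itgam, a myeloid integrin chain, read 163 and 154 in myofibroblasts and 136 and 143 in homogenate on the kept probe, which makes up most of the summed macrophage signal of 186 and 179; another probe fell by 2.64 (limma, adjusted p = 0.0185). Csf1r was flat on one probe and lower by 3.60 on another, Tpm1 flat on one and higher by 1.37 and 3.30 on others, and Prrx2, a mesenchymal homeobox factor, flat on one and higher by 3.56 on another. Col24a1, Ptges, Fbn2, Aurkb and Trp63 were the other 5.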

How the data were processed

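RNA of 6 samples was hybridised to 1-colour Agilent arrays. The deposited intensity values, per the file headers, are background-subtracted and detrended processed signals from Agilent Feature Extraction 12.0.3.1 (design build mm9), with no scaling between arrays. The authors' table of intensity values equals these signals times 1 constant per array, between 5.17 and 6.93; the sources used here do not give its scaling method.

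Outlier spots were left out, spots of a probe averaged, and log2 signals centred on each array's 75th percentile. Probes were named through RefSeq accessions (32994 of 56605 probes, 22911 genes), and the brightest probe of a gene was kept. A gene with signal well above background on both arrays of either group was tested in limma 3.58.1 (R 4.3.3), with all 6 arrays in 1 fit of 3 groups (3 residual degrees of freedom) and Benjamini-Hochberg adjustment. Only 2 arrays a group limit the precision. On simulated data for myofibroblasts against homogenate (17162 genes, 50 changed at each fold), the test found 2% of 2-fold, 46% of 4-fold, 84% of 8-fold and 94% of 16-fold changes. Far fewer genes were changed there than the 27.2% called in the real data. The adjustment was therefore stricter in the simulation, and these shares do not carry over to the real comparison.

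Members and gene lists were chosen with earlier results of these data known. Genes to name were drawn from the sort markers and from the 12 largest changes and 6 largest bounded folds each way. Predicted genes, pseudogenes and RIKEN or clone names were left out of these rankings. From each list came the 4 most changed genes and, for other cell types, the first 3. A further 5 genes were set singly (Tcf21, Itga8, Cd248, Acta2, Col1a1). Not all of these genes are named in the text. Those unnamed include called genes, such as Pecam1 and Cd3e, and genes that were not called, such as Cd4 and Pi16. Chosen after their values were seen were Spp1, Postn, Marco, Ctss, Mki67, Myh11, Col1a2, Col3a1, Myl9, Vcl, Cnn2, single list members that give a count its names, the Y-linked genes and genes named for their probes. Alternatives changed scaling, background correction, filter, probe rule, fit and arrays. The normexp alternative used median spot signals (offset 50), since the files hold no mean signal.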

Additional observations from a re-analysis of the deposited data

Results flagged for a closer look

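Probes without a gene name were not part of the comparison above. Fitted separately with limma, 14809 of them were tested and 2699 (18.2%) passed an adjusted p under 0.05, with 682 higher and 2017 lower in myofibroblasts. Among the higher ones, 176 were above background on neither homogenate array. These entered the test through the myofibroblast arrays alone, so that their direction was largely set by the filter. Of the 17162 named genes tested, 254 entered in that way, whether called or not. With 2 arrays a group, no test for an outlying array was possible.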

How the results depend on the processing

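No call of the comparison turned to the opposite direction under any alternative except with all probes of a gene averaged, where 1 did. Against 4673 calls (2077 higher, 2596 lower), the fit of the 4 arrays alone gave 7391 (3746 higher), an adjusted p under 0.01 gave 2119 (752 higher, 1367 lower) and a test against a 2-fold minimum 1861 (589 higher, 1272 lower). Median scaling gave 3785 higher, and in the authors' values 1196 were higher and 4621 lower. Requiring signal above background on all 4 arrays left 1431 lower. Array weights per group, added after seeing the data, gave 7883 (3833 higher, 4050 lower). Leaving out 1 array gave between 1859 and 7391 calls, 589 to 3746 higher and 1270 to 3645 lower: fewest, 1859 and 2018, without the second or first homogenate array, 2569 and 2931 without the second or first myofibroblast array, and most, 7391 and 7388, without a fibroblast array. The array left alone in its group is assumed to vary like the others. Averaging all probes gave Cxcl12 0.19, Itgam -1.23, Tpm1 1.52, Col24a1 1.84, Ptges 1.92, Trp63 -0.86 and Sly 0.57, in each case the opposite sign to the kept probe. The replicate numbers did not pair the samples (r = -0.003 across 14610 genes); with the replicate block 4136 genes were called (1741 higher, 2395 lower). Of the alternatives for single named genes, 254 ended a call and 42 made one. Signal over background limits genes such as Cdk1 and Twist1, which were not well above it in homogenate.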

Other observations

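Further genes with large rises belonged to none of the groups described above. They were chosen after their values were seen, from the 36 largest rises among genes above background on all 4 arrays. Predicted, RIKEN and clone genes were left out of that ranking. Cemip, which degrades hyaluronan, read 3.94 and 2.61 in myofibroblasts and 0.0741 and 0.0560 in homogenate. Chl1 and Nrcam, cell adhesion molecules best known from neurons, read 6.24 and 5.91, and 36.2 and 33.5, against 0.134 and 0.132, and 1.25 and 0.884. Aldh1a3, which makes retinoic acid, rose by 5.42 on the log2 scale, and the gap junction gene Gjb5 by 5.16. Chl1 was near the homogenate level in fibroblasts, at 0.126 and 0.0722, while Nrcam was at 10.6 and 6.29 there. Tpx2, of the mitotic spindle, read 11.9 on the first myofibroblast array and 4.18 on the second, and lost its call without either of them or the second homogenate array (limma, adjusted p up to 0.112).

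On the lower side, Eya2, a transcriptional cofactor, read 0.0788 and 0.0503 in myofibroblasts against 7.69 and 6.41 in homogenate, and 4.87 and 1.88 in fibroblasts. Il1b, an inflammatory cytokine, read 0.157 and 0.0634 against 12.9 and 17.7.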
